A study of Mus musculus with 8 samples.

Results

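Lost LRH-1 sites without any FAIRE peak are places where LRH-1 was bound before the ovulatory signal, where no LRH-1 peak was called after it, and where open chromatin was called at neither time. They were chosen from the deposited peak lists: a LRH-1 peak before hCG that shares no base with any LRH-1 peak after hCG and no base with any FAIRE peak of either time. The rule found 971 of 5886 LRH-1 peaks before hCG (16.5%, with an exact binomial 95% interval of 15.6 to 17.5). The presence or absence of a call in all 4 lists chose the sites, so these counts, and the peak values below that decide a call, are descriptions without a test.

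LRH-1 (NR5A2) is an orphan nuclear receptor that binds DNA as a monomer at an extended half-site and that drives steroid synthesis genes in the ovary. It is expressed in granulosa cells, which nurse the oocyte and make oestradiol, and mice without it in these cells do not ovulate. The ovulatory signal is the surge of luteinising hormone, for which an injection of human chorionic gonadotropin (hCG) stands in, and within hours it turns granulosa cells towards the luteal state. FAIRE (formaldehyde-assisted isolation of regulatory elements) recovers DNA that is poorly crosslinked to protein after formaldehyde fixation, which is mostly DNA depleted of nucleosomes.

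The groups used were C57BL/6 mice of genotype LRH-1 +/+, aged 22 to 25 days, that had all received 5 IU of equine chorionic gonadotropin (eCG) to make follicles grow. Samples were taken 4 h after 5 IU of hCG given 44 h after eCG (+OvS), or at 0 h (-OvS). For FAIRE, ovaries were punctured to obtain granulosa cells. For LRH-1 chromatin immunoprecipitation (ChIP), pieces of whole ovarian tissue were fixed (a stated n of 5 per condition), although the label gives granulosa cells as the tissue. A LRH-1 site without a FAIRE peak can therefore come from an ovarian cell that FAIRE did not sample; this was not tested, and in tissue taken in bulk, fewer cells with LRH-1 at a site and less LRH-1 per cell cannot be told apart.

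The lists held 9413 LRH-1 peaks after hCG and 5886 before it, and 22791 FAIRE peaks after hCG and 21431 before it, all placed on mouse build mm9. The labels state 2 replicates, but each assay has 1 list per time, so there is no replicate error; intervals below cover counting error only and compare these lists. For each LRH-1 peak, the deposited fold enrichment and −log10 p were solved for the number of sequenced fragments over the summit and the expected background, and a whole number of fragments met both values in 100% of peaks of either list (misfit of −log10 p under 0.001). The lowest background was 2.42 fragments after hCG and 2.27 before it. Divided by the smallest peak width of each list, 233 bp after hCG and 219 bp before it, both came to 0.0104 fragments per bp.

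A larger share of LRH-1 peaks was lost where no FAIRE peak was called. Among the 2341 LRH-1 peaks before hCG without a FAIRE peak at either time, which are 39.8% of the list, 41.5% were lost (95% interval 39.5 to 43.5), against 27.6% of the 3545 with a FAIRE peak (95% interval 26.1 to 29.1) and 33.1% of the whole list. Read the other way, 49.8% of the 1948 lost peaks had no FAIRE peak (95% interval 47.6 to 52.1), against 34.8% of the 3938 peaks that persisted (95% interval 33.3 to 36.3). Of the other lost peaks, 60 overlapped a FAIRE peak of the list after hCG alone, 284 one of each list, and 633 one of the list before hCG alone (before-only FAIRE).

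The lost sites without FAIRE were among the weaker LRH-1 peaks. Their median authors' fold enrichment was 5.29 (interquartile range 4.82 to 5.90), against 5.50 for lost peaks with before-only FAIRE, 5.69 for persistent peaks without FAIRE and 5.83 for all 4915 other LRH-1 peaks before hCG. Their median −log10 q, the value that ranks the peaks in what follows, was 7.14, against 7.66, 8.48 and 9.20 in those classes, in the same order. Lost peaks at FAIRE peaks of both times were close to the sites, at a median fold of 5.37 and a median −log10 q of 7.25. The 60 lost peaks with FAIRE after hCG alone had 5.36 and 7.51. Only 28.0% of the lost sites without FAIRE scored above the median of the list. They were also narrower, with a median of 253 bp against 297 bp for all other peaks, and 19.1% were of the smallest width in the list, against 8.44% of the others (95% intervals 16.6 to 21.7 and 7.68 to 9.26). Other lost peaks were narrow too. Their medians were 268 bp with before-only FAIRE, 257.5 bp with FAIRE at both times and 243.5 bp with FAIRE after hCG alone. The smallest width made up 13.6%, 16.9% and 25.0% of these classes, in the same order. The summit sat near the middle of the peak in the lost sites without FAIRE and in all other peaks, at medians of 47.7% and 48.6% of the width.

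When the list before hCG was divided by score into 10 groups of equal size, lost sites without FAIRE made up 1.53% of the best-scoring group (9 of 588 peaks) and 29.2% of the worst-scoring (172 of 589). The lowest scores thus held the most of them, but no range of scores was free of them. The difference in FAIRE was also seen among peaks of like score: in 10 of 10 groups the share without FAIRE was higher among lost than among persistent peaks, from 26.5% against 18.1% in the best-scoring group to 57.7% against 47.1% in the worst-scoring. With the persistent peaks weighted to the scores of the lost ones, 40.6% of them had no FAIRE peak, compared with the 49.8% of lost peaks. These shares and the 10 of 10 groups rest on the lists that chose the sites, and the score that forms the groups also decides whether a peak is listed. They are descriptions, and a link between loss and FAIRE beyond the score was not tested.

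**Figure D1:**
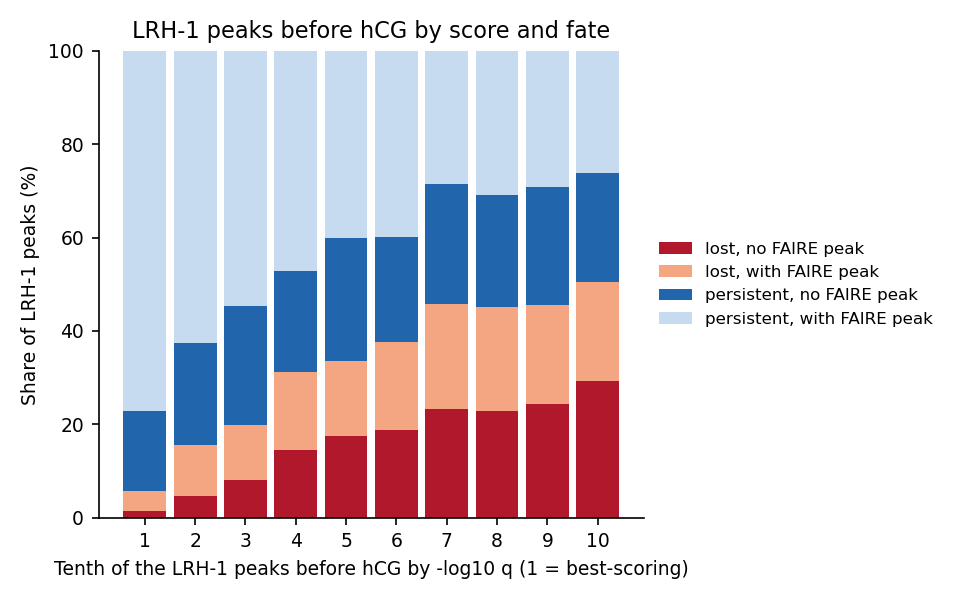
LRH-1 peaks before hCG in 10 groups of equal size by −log10 q, from the best-scoring (1) to the worst-scoring (10). Bars give the share of each group that was lost or persisted, with and without a FAIRE peak at either time. The share of lost sites without FAIRE goes from 1.53% in group 1 to 29.2% in group 10.

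Fragment counts give the depth behind each peak. The lost sites without FAIRE had a median of 19 fragments over the summit (interquartile range 17 to 22, from 12 to 78) on a median background of 2.61. Lost peaks with before-only FAIRE had 20 on 2.76, and persistent peaks without FAIRE had 21 on 2.87. The background stood at the lowest value of the list in 19.2% of the lost sites without FAIRE, in 14.8% of lost peaks with before-only FAIRE and in 12.6% of persistent peaks without FAIRE (95% intervals 16.7 to 21.8, 12.2 to 17.9 and 10.9 to 14.5). Thus these sites had both the lowest counts and the lowest background of the 3 classes. The low count was not particular to them, as lost peaks at FAIRE peaks of both times also had a median of 19 fragments, on a background of 2.78.

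The lost share was smaller at higher numbers of fragments. Among LRH-1 peaks before hCG without FAIRE, 63.3% of those with 12 to 15 fragments were lost (143 of 226), 49.6% of those with 16 to 19, 40.2% with 20 to 24, 29.6% with 25 to 29, 21.9% with 30 to 39, and 4.71% of those with 40 or more (4 of 85, 95% interval 1.30 to 11.6). Among peaks with a FAIRE peak the corresponding shares were 45.4%, 44.6%, 31.7%, 19.7%, 13.0% and 4.62%. The lost share without FAIRE was thus the higher one in each range below 40 fragments. The differences were 17.9, 5.02, 8.47, 9.89 and 8.90 percentage points from the lowest range up, without a steady order. At 40 or more the shares were alike, 0.08 points apart (4 of 85 and 19 of 411 peaks). These shares, too, rest on the lists that chose the sites, and the fragments that form the ranges help decide whether a peak is listed. They are descriptions, no intervals were made for the differences, and a link between loss and FAIRE beyond depth was not tested.

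**Figure D2:**
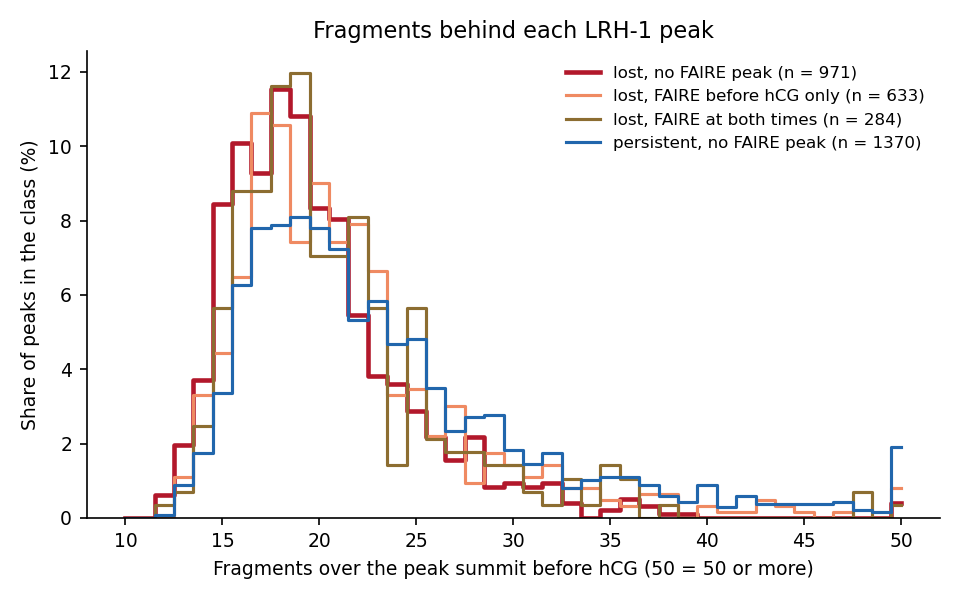
Fragments over the summit of each LRH-1 peak before hCG, as the share of peaks in each class at each number of fragments; 50 stands for 50 or more. The lost sites without FAIRE (median 19) lie mostly between 15 and 25 fragments, overlap widely with the other lost classes, and have a shorter upper tail than persistent peaks without FAIRE (median 21).

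A lost call is not the same as an empty site after hCG, because a peak had to reach the caller's limit to be listed. The lowest −log10 p of any LRH-1 peak after hCG was 5.50, which at the background of each lost site without FAIRE takes a median of 13 fragments. The sites exceeded that number by a median of 6 fragments, and 192 of 971 by at most 3. For 383 of them (39.4%, 95% interval 36.4 to 42.6) the exact Poisson 95% interval of the fragments before hCG lay above every number that would have gone unlisted after hCG, against 50.4% of lost peaks with before-only FAIRE and 58.4% of persistent peaks without FAIRE. The count of 383 was 234 with the background raised by 1.20, its median ratio after to before hCG at persistent peaks without FAIRE, 136 with the limit at the 5th percentile of −log10 p after hCG, and 69 with both. For the other sites, that interval reached numbers that would have gone unlisted. The interval leaves out the counting error after hCG, and the count before hCG is the one that got the peak listed. The 383 sites are therefore not shown to have dropped beyond counting error. How duplicate reads were handled and which control gave the background are not given in the labels, and both bear on the fragments, the background and these Poisson intervals.

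As a measure of how far counts moved at sites that stayed, persistent LRH-1 peaks without FAIRE had a median of 25 fragments after hCG and 21 before it. Their ratio after to before hCG had a median of 1.16, and ran from 0.792 at the 10th percentile to 1.68 at the 90th. Peaks had to be listed at both times to enter this ratio, so large drops are missing from it. The background of the same peaks had a median ratio of 1.20 after to before hCG, and the counts were not corrected for it. The 1.16 therefore does not show a rise in LRH-1 over background.

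The 10 best-scoring lost sites without FAIRE are given as a description, since the score that ranks them is made from the same fragments. The first lay on chromosome 9 at 40250385 to 40250733, 13.1-fold enriched, with 78 fragments (exact Poisson 95% interval 61.7 to 97.3), rank 44 of the 5886 peaks. At its background before hCG, 18 fragments would reach the lowest −log10 p listed after hCG, and 23 with both the raised background and the stricter limit. Its nearest LRH-1 peak after hCG, a gained one of 25 fragments, was 4695 bp away.

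The next 3 were of similar strength. On chromosome 1, 137101992 to 137102408 was 14.5-fold enriched, the highest fold of all lost sites without FAIRE, with 61 fragments. On chromosome 3, 52617444 to 52617816 was 11.0-fold enriched with 66 fragments, and a FAIRE peak of the list before hCG lay 1152 bp away. On chromosome 13, 49407463 to 49407799 was 12.2-fold enriched with 57 fragments, 3683 bp from a FAIRE peak of the list after hCG. No other lost site without FAIRE had more than 39 fragments, so these 4 stand apart from the rest.

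The remaining 6 had 32 to 39 fragments. They lay on chromosome 4 at 136547878 to 136548151, chromosome 19 at 55773806 to 55774150, chromosome 16 at 90780037 to 90780362, chromosome 6 at 42664678 to 42665033, chromosome 13 at 63374085 to 63374368 and chromosome 14 at 47205398 to 47205649. The one on chromosome 14 was the most isolated of the 10, at 149063 bp from the nearest LRH-1 peak after hCG and 137701 bp from the nearest FAIRE peak.

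The rule has a sharp edge of 1 bp. The peaks named on either side of it, for LRH-1 and for FAIRE, had 15 to 22 fragments. The median was 19 over all lost sites without FAIRE and 22 over the whole list before hCG. Just inside the edge for LRH-1, a site on chromosome 19 at 3624158 to 3624395 with 18 fragments had a gained peak of 17 fragments 1 bp away, from 3623872 to 3624156. A site on chromosome 4 at 150243242 to 150243460 and one on chromosome 8 at 106766667 to 106766889, with 21 and 17 fragments, had gained peaks of 21 and 22 fragments 31 and 40 bp away. At these sites the count after hCG in the adjoining peak was close to or above that before it. Just outside, persistent peaks without FAIRE on chromosome 4 at 139599443 to 139599661, chromosome 17 at 31944922 to 31945193 and chromosome 9 at 118782965 to 118783183 shared 25, 45 and 49 bp with a peak after hCG, at 16, 17 and 17 fragments.

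For FAIRE the edge looked alike. Just inside were sites on chromosome 14 at 99358248 to 99358521, 5 bp from a FAIRE peak after hCG, on chromosome 2 at 113358208 to 113358426, 8 bp from one before hCG, and on chromosome 5 at 142790545 to 142790763, 17 bp from one after hCG. Just outside were lost peaks on chromosome 10 at 23852400 to 23852618, chromosome 6 at 115851533 to 115851751 and chromosome 8 at 67204490 to 67204708, sharing 1, 12 and 13 bp with a FAIRE peak. Of the 971 sites, 25 had a LRH-1 peak after hCG within 500 bp and 38 (3.91%) within 1 kb, and 87 (8.96%) had a FAIRE peak at less than 1 kb. With peaks within 1000 bp counted as overlapping, 860 of the sites remained.

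A gained LRH-1 peak lay within 10 kb of few of the lost sites without FAIRE, and of few other LRH-1 peaks. The nearest LRH-1 peak after hCG was a median of 37.8 kb away (interquartile range 10.7 to 106.8 kb), against 52.5 kb for lost peaks with before-only FAIRE, 44.9 kb for lost peaks at FAIRE peaks of both times and 29.5 kb for the 60 lost peaks with FAIRE after hCG alone. A gained LRH-1 peak lay within 1 kb of 26 sites (2.68%, 95% interval 1.76 to 3.90) and within 10 kb of 132 (13.6%, 95% interval 11.5 to 15.9), compared with 11.9% of all other LRH-1 peaks before hCG (95% interval 11.0 to 12.8). The share within 10 kb was 13.4% for persistent peaks without FAIRE (95% interval 11.6 to 15.3) and 10.7% for lost peaks with before-only FAIRE (8.44 to 13.4). Within 5 kb the shares were 7.72% of the sites (95% interval 6.12 to 9.59) and 5.45% of all other peaks, which lies below that interval, and within 50 kb they were 40.1% and 41.7%. The other peaks include persistent ones, which by definition overlap a LRH-1 peak after hCG, so shares at short range do not compare like with like. The nearest LRH-1 peak after hCG was a gained one for 57.8% of the sites (95% interval 54.6 to 60.9), against 58.1% of gained peaks in the list after hCG as a whole.

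Open chromatin lay about as near to these sites as to other LRH-1 peaks, once FAIRE peaks that overlap a LRH-1 peak itself were left out. The nearest FAIRE peak at either time was a median of 10.4 kb away (interquartile range 3.62 to 26.0 kb), compared with 9.24 kb for persistent and 11.2 kb for gained LRH-1 peaks without FAIRE. It belonged to the list after hCG for 465 sites and to that before hCG for 506 (52.1%, 95% interval 48.9 to 55.3). A FAIRE peak called at both times is in both lists, where a few bases at its edge decide which is nearer. This split therefore does not show when chromatin was open. A FAIRE peak lay within 10 kb of 48.6% of the sites and 46.6% of all other LRH-1 peaks before hCG, and within 50 kb of 87.1% of the sites and 88.8% of the others. At the other extreme, a site on chromosome X at 117406765 to 117406983 with 17 fragments was 1399594 bp from any FAIRE peak and 5892928 bp from any LRH-1 peak after hCG. Sites on chromosome 15 at 29413188 to 29413460 (26 fragments) and chromosome 7 at 110729373 to 110729591 (16 fragments) were 1300749 and 662860 bp from the nearest FAIRE peak.

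**Figure D3:**
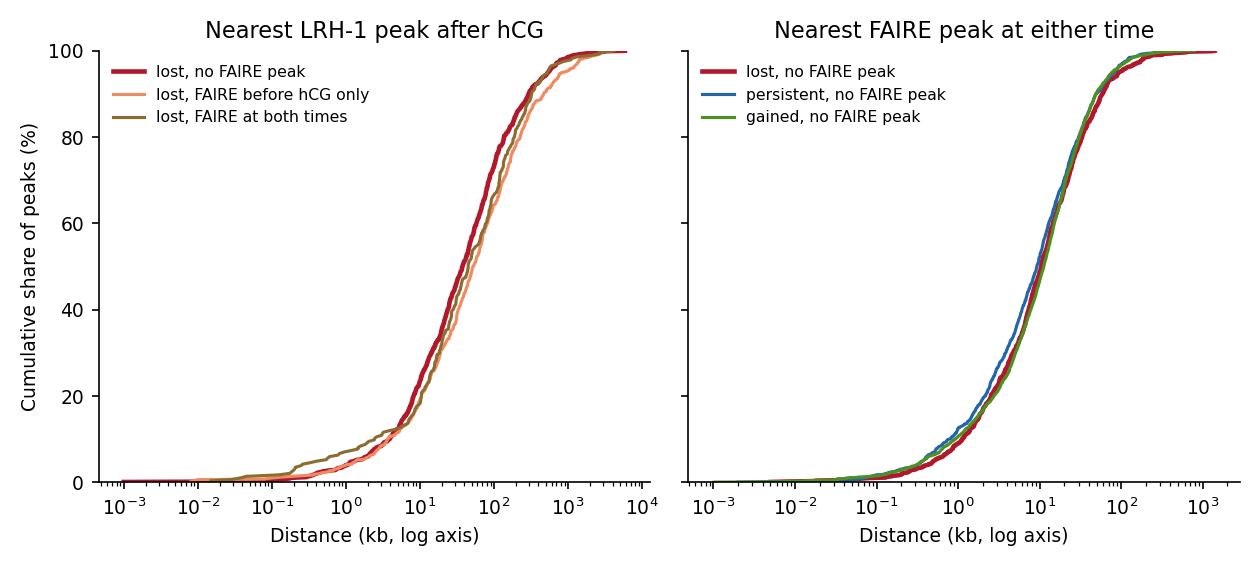
Cumulative share of peaks by distance on a log axis in kb, with distances under 1 bp drawn at 1 bp. Left: distance from 3 of the 4 classes of lost peaks to the nearest LRH-1 peak after hCG (medians 37.8, 52.5 and 44.9 kb in the order of the key). Right: distance from lost, persistent and gained LRH-1 peaks without FAIRE to the nearest FAIRE peak (medians 10.4, 9.24 and 11.2 kb), where the curves lie close together.

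Median fold enrichment was somewhat lower at sites less than 10 kb from a FAIRE peak than at sites farther away. It was 5.08 for the 87 sites under 1 kb, 5.19 at 1 to 5 kb and 5.15 at 5 to 10 kb. For the 373 sites at 10 to 50 kb it was 5.43, for the 79 at 50 to 100 kb 5.52, and for the 46 at 100 kb or more 5.48. The median −log10 q had no such order, at 7.20, 7.60, 6.73, 7.19, 7.57 and 6.73. No intervals were made for these medians.

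By kind of neighbour, most shares within 10 kb were close to those of other LRH-1 peaks. FAIRE peaks seen only after hCG lay within 10 kb of 21.8% of the sites, FAIRE peaks seen only before hCG within 10 kb of 17.5%, and FAIRE peaks of both times within 10 kb of 20.7%. For all other LRH-1 peaks before hCG these shares were 20.5%, 17.2% and 20.1%, each inside the 95% interval of the lost sites, which was 19.3 to 24.6 for the after-only and 18.2 to 23.4 for the both-times peaks. Persistent LRH-1 peaks without FAIRE had FAIRE peaks of both times nearby more often, at 25.8% (95% interval 23.5 to 28.2). That interval lies just above the one of the lost sites. Of the single-time FAIRE peaks within 50 kb of the sites, 949 were after-only and 855 before-only, a ratio of 1.11, compared with 1.00 around lost peaks with before-only FAIRE, 1.22 around persistent peaks without FAIRE and 1.14 in the FAIRE lists as a whole. Within 10 kb the order was another one, with ratios of 1.26 around the sites (239 and 189 peaks), 0.991 around lost peaks with before-only FAIRE and 1.20 around persistent peaks without FAIRE.

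The lost share among the neighbours of these sites was close to that elsewhere in the list. Of the 186 other LRH-1 peaks before hCG counted within 10 kb of a lost site without FAIRE, 57 were lost themselves (30.6%, 95% interval 24.1 to 37.8), against 31.2% around all other LRH-1 peaks and 33.1% of the whole list. Within 50 kb the share was 31.5% (95% interval 28.2 to 35.0). A peak near 2 sites was counted once for each, so these counts are not independent.

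**Figure D4:**
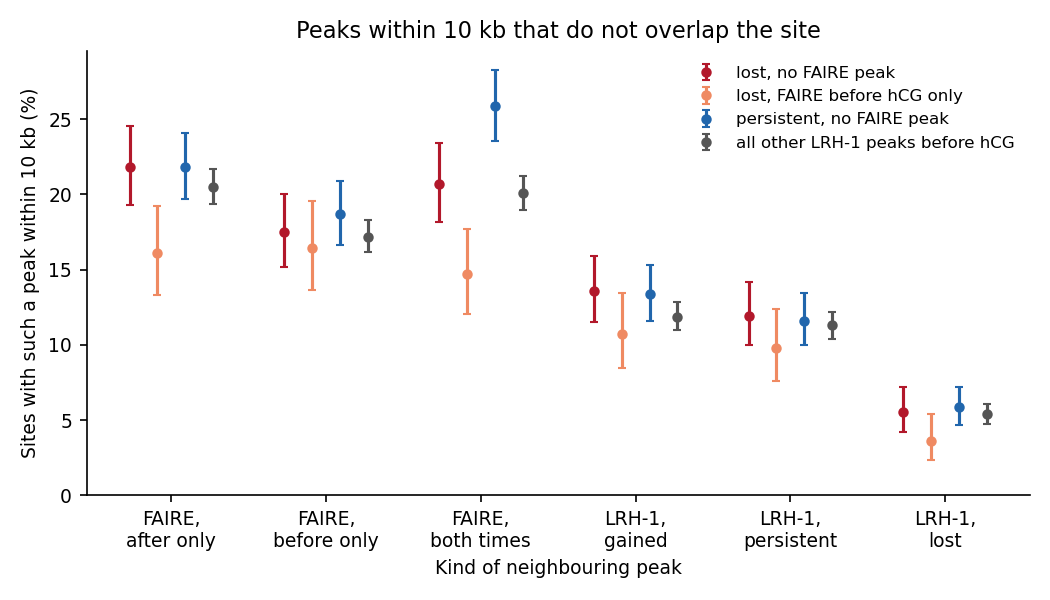
Share of sites with at least 1 peak of each kind within 10 kb, not counting peaks that overlap the site; bars are exact binomial 95% intervals. The intervals of the lost sites without FAIRE (red) hold the share of all other LRH-1 peaks before hCG (grey) for the 6 kinds of neighbour, at 21.8% against 20.5% for FAIRE peaks seen only after hCG and 5.56% against 5.37% for lost LRH-1 peaks.

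Few of the sites lay near another one, and few other LRH-1 peaks did. Another lost site without FAIRE lay within 10 kb of 38 sites (3.91%), which formed 19 pairs and no longer run, and the median distance to the next one was 457.3 kb. A lost site without FAIRE lay within 10 kb of 2.93% of all other LRH-1 peaks before hCG (95% interval 2.48 to 3.44, against 2.78 to 5.33 for the sites), and within 50 kb of 11.4% of them, against 11.6% of the sites. One close pair, on chromosome 7, held 137250531 to 137250800 at 7.30-fold and 137251025 to 137251255 at 5.33-fold, 224 bp apart, with 25 and 18 fragments. Windows of 1 Mb held at most 5 of the sites, in 4 windows. The one on chromosome 7 from 137000001 to 138000000 had 14 LRH-1 peaks before hCG, of which 10 were lost and 4 persisted, along with 8 gained ones. In the other 3, on chromosome 2 from 31000001 to 32000000, chromosome 5 from 125000001 to 126000000 and chromosome 8 from 122000001 to 123000000, 5 of 9, 6 of 13 and 5 of 11 LRH-1 peaks before hCG were lost.

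Every chromosome with LRH-1 peaks in the lists held some of the sites. Their share of the LRH-1 peaks before hCG ran from 12.5% on chromosome 14 (33 of 264, 95% interval 8.76 to 17.1) to 25.6% on chromosome X (20 of 78, 95% interval 16.4 to 36.8). The 95% intervals of 20 of 20 chromosomes held the share of 16.5% over all of them. Chromosome X had few LRH-1 peaks, but the highest share lost, at 47.4%, and a median fold of 5.80 over its 20 lost sites without FAIRE.

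**Figure D5:**
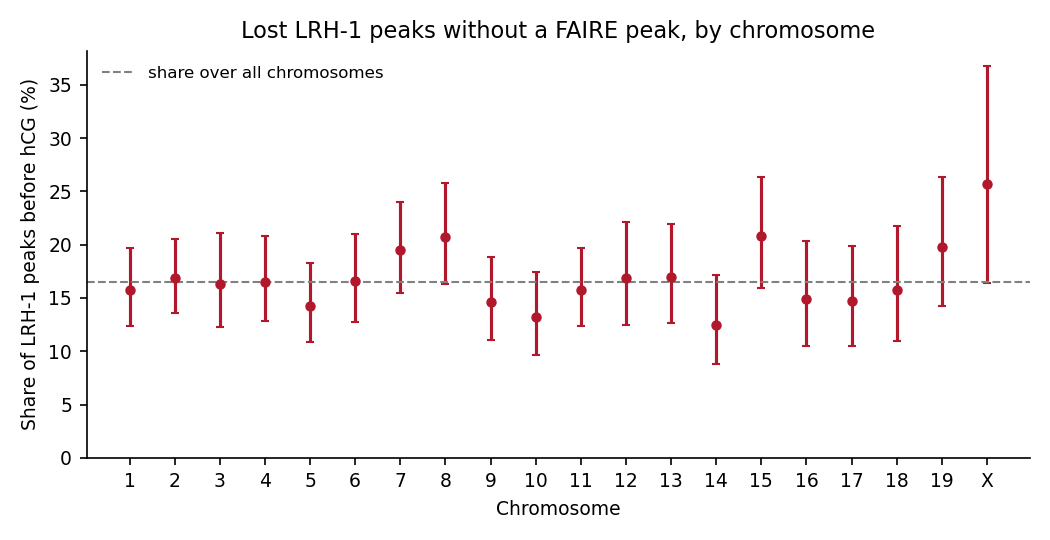
Lost LRH-1 sites without FAIRE as a share of the LRH-1 peaks before hCG on each chromosome, with exact binomial 95% intervals; the dashed line is the share over all chromosomes, 16.5%. The points lie between 12.5% and 25.6%, and each interval holds the line.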

How the data were processed

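FAIRE-seq and LRH-1 ChIP-seq peak lists of 2 times were used. BWA and mm9 are named for both assays, and MACS2 2.1.0 and bedtools for LRH-1, per the submitters' processing notes. FAIRE peaks carry names that begin with MACS, per the files. Whether replicates were pooled is not stated. FAIRE peaks have the authors' score, none below 40. For LRH-1 peaks the authors deposited a score, the fold over background as a ratio, −log10 p, −log10 q and the offset of the summit. The sites and comparisons were chosen with earlier results of these data known, and the fragment counts and their limit were added after seeing the data.

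Overlap meant at least 1 bp shared, and distance the bases between peak edges; printed starts count from 1. Intervals of shares are exact binomial (Clopper-Pearson) at 95%. Fragments n and background b were solved from MACS2's formulas, fold = (n + 1)/(b + 1) and p the Poisson tail above n. Library read totals were not used here. The named sites were the 10 best-scoring, the 3 nearest to each side of the rule, the 3 farthest from FAIRE, the 3 nearest to a gained peak (the same as the 3 just inside the rule for LRH-1), and the densest windows and runs, leaving out chromosome 18; the closest pair off that chromosome was chosen after its values were seen. Distance and fragment functions were tested on simulated data. Python 3.11.15 with numpy 2.4.6, pandas 2.3.3, scipy 1.17.1 and matplotlib 3.10.9 was used. The RNA tables, gene annotation and DNA sequence of the sites were not used here, so genes and motifs were not analysed.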

Additional observations from a re-analysis of the deposited data

How the results depend on the processing

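The number of sites, 971, was between 860 and 1377 under 7 of 9 other settings of the rule: an overlap of at least 0.5 of the shorter peak, peaks within 250 or 1000 bp counted as overlapping, the LRH-1 summit inside the other peak, an equal number of LRH-1 peaks at both times, FAIRE peaks above the median score, and FAIRE before hCG only. The highest of these were 1324 with an equal number of LRH-1 peaks at both times, where 2722 peaks were lost, and 1377 with FAIRE peaks above the median score. The number depends on the size of these lists. It was 273 among LRH-1 peaks before hCG above the median score and 1604 with FAIRE after hCG only. Both settings use fewer peaks by construction. So do FAIRE before hCG only, FAIRE peaks above the median score and an equal number of LRH-1 peaks at both times. The share of lost peaks without FAIRE, 49.8%, was 46.3% with peaks within 1000 bp counted as overlapping, 43.7% among LRH-1 peaks above the median score, 70.7% with FAIRE peaks above the median score, 52.9% with FAIRE before hCG only and 82.3% with FAIRE after hCG only. The median fold of 5.29 was 6.38 among sites above the median score. Shares of sites with a neighbour move with the window by construction. A gained LRH-1 peak lay within 5 kb of 7.72% and within 50 kb of 40.1% of the sites, a FAIRE peak within 5 kb of 30.8% and within 50 kb of 87.1%, and another such site within 5 kb of 2.06% and within 50 kb of 11.6%. The count of 383 sites above the limit of the list after hCG was 234 with the raised background, 136 with the stricter limit and 69 with both, settings chosen after seeing the data. No paired analysis was possible because each assay has 1 list per time. The motif search was not run, as no mm9 sequence was used here. Depth limits the rest: at a median of 19 fragments, the counting interval before hCG reached unlisted numbers at most sites. The counting error after hCG was not included, so a fall beyond counting error was not tested at any site.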
